A study of Homo sapiens with 32 samples.

Results

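ALKBH5 and FTO are the 2 known human demethylases of N6-methyladenosine (m6A) in RNA, and they were taken by symbol from expression tables of 58721 genes. The study measured RNA in HEK293T, an established human embryonic kidney cell line, after 16 h in 600 nM thapsigargin (Tg) or in its vehicle DMSO. Thapsigargin inhibits SERCA, the pump that fills the endoplasmic reticulum (ER) with calcium, and so causes ER stress. Cells expressed wild-type eIF3d (WT) or eIF3d with the changes S528D and S529D (DD), in which aspartate stands in for phosphorylated serine. RNA-Seq of poly(A) RNA had 4 groups of 2 libraries, one for each genotype under each treatment. Subunit-Seq used cells with the genotype HA-eIF3d-TEV, under DMSO or Tg, with 2 input and 2 immunoprecipitated (IP) libraries per treatment. In the IP, eIF3d was captured on anti-HA beads and its cap-binding domain, with the RNA it held, was cut free by TEV protease. The m6A-eCLIP arm of 16 libraries was deposited as 1 site list for each genotype and treatment. The labels do not say whether replicates were separate cultures, or whether the DD cells were 1 clone, so p-values measure the spread between these libraries, which may be technical.

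m6A is the most common internal mark of messenger RNA. Writers, a complex around METTL3 and METTL14, place it, readers such as the YTH proteins bind it, and demethylases remove it. ALKBH5 and FTO belong to the AlkB family of iron-dependent dioxygenases, which use 2-oxoglutarate as co-substrate and are inhibited by succinate and fumarate. ALKBH5 acts on m6A in the nucleus, while FTO also acts on the related mark m6Am beside the cap and on other RNAs. eIF3d is the subunit of the initiation factor eIF3 that can bind the 5′ cap.

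ALKBH5 (ENSG00000091542.8) is on chromosome 17 from 18183828 to 18209954 on the plus strand (RefSeq, GRCh38.p14), a span of 26127 bases that no other RefSeq gene overlaps. Its neighbours are MYO15A, which ends 4027 bases before it, and LLGL1, which starts 15680 bases after it. FTO (ENSG00000140718.20) is on chromosome 16 from 53703963 to 54121941 on the plus strand, a span of 417979 bases. FTO shares that span with 3 noncoding genes, LOC124903691, FTO-IT1 and LOC105371271. FTO-IT1 lies on the same strand and LOC124903691 on the opposite one, and the strand of LOC105371271 was not given. RPGRIP1L starts on the minus strand 103 bases before FTO, and LINC02169 follows 123602 bases after it. The counting was not stated to use strand, so reads of FTO and of the overlapping genes cannot be told apart.

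The bases directly before each gene are shown because the cellular response to Tg acts partly through promoter elements, with CpG dinucleotides in capitals. They are from RefSeq, GRCh38.p14, plus strand, chr17:18183578-18183827 for ALKBH5 and chr16:53703906-53703962 for FTO, whose sequence is limited to the part of its promoter window that lies before the gene.
ALKBH5: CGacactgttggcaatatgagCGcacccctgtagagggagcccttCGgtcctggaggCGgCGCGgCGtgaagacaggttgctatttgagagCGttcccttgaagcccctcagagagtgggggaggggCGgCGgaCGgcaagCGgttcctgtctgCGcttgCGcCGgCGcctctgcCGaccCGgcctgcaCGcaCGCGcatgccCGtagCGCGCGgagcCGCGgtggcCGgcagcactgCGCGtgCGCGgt
FTO: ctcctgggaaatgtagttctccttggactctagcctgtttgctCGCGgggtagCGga
The ALKBH5 sequence of 250 bases had a GC content of 70% and 32 CpG. Of 27305 promoters in the same window, 92.1% had 32 CpG or fewer, and the median was 11. The FTO sequence of 57 bases held 3 CpG. Neither sequence held, on either strand, any of 4 motifs tied to ER stress. These were the ER stress element (CCAAT, 9 bases of any kind, then CCACG), the unfolded protein response element core TGACGTG, the C/EBP-ATF response element TGATGNAAT and the CRE core TGACGTCA, the last of which shares letters with TGACGTG. They were present in 0.0806%, 1.71%, 0.916% and 1.77% of all promoter windows, so no match says only that these letters are not in these windows.

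RNA-Seq libraries held 4508483 to 10163214 reads each, and Subunit-Seq libraries 5102852 to 16860637. Mitochondrial ribosomal RNA took 25.4% to 57.3% of the RNA-Seq reads, 4.64% to 20.4% of the input reads and at most 0.705% of the IP reads. Input DMSO replicate 2 stood apart, with 6395 genes at 1 RPKM or more against 8503 to 11452 in the other inputs and 12945 to 13799 in the IPs. DD Tg replicate 2 had the highest mitochondrial ribosomal share of the RNA-Seq libraries. Of the markers of these cells, VIM, KRT8, KRT18, LIN28B and SALL2 were present in every library, while PAX2 was at most 0.194 RPKM in RNA-Seq. Of 8 markers of other cell types, PTPRC, CD3E and INS were at 0 in all 16 expression libraries. ALB, PECAM1, MYH7 and APOA1 were above 0 in some, with highest group means of 0.0543, 0.0198, 0.372 and 1.76 RPKM. COL1A2, a fibroblast collagen, was 7.27 to 10.0 RPKM in each replicate 1 RNA-Seq library, 20.7 RPKM in IP DMSO replicate 1, and 0 in every replicate 2 library. The part of these differences in the results was not tested. Of the checks of treatment, TRIB3, a stress target of ATF4, rose in the Subunit-Seq input under Tg by a log2 difference of 3.02 (limma, Benjamini-Hochberg adjusted p = 0.00985). That call was made under none of the 6 other settings, where no gene was called, and its difference in WT RNA-Seq was 0.13 and did not pass the test. In DD RNA-Seq under Tg, TRIB3 (−0.81), the stress factor DDIT3 (−1.05), the ER chaperone HSPA5 (−0.05) and EIF3D itself (−0.30) all lay below the median of all genes, 0.02, and none passed the test. In WT RNA-Seq under Tg, the stress genes TRIB3, DDIT3 and HSPA5 lay above the median of all genes, 0.12, and EIF3D did not. The median of the 4 was 0.22, and none passed the test. In the Subunit-Seq input under Tg, all 4 lay above the median of all genes, with a median of 2.51 against 0.15. There DDIT3 averaged 6.52 RPKM in DMSO and 41.3 in Tg, and HSPA5 11.4 and 82.5, but only TRIB3 passed the test. All 4 were also above the median of all genes in the IP, with 2.31 against 0.07, and none passed the test.

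RPKM divides the reads of a gene by its length and by the depth of the library, so that genes can be compared per length. In these bulk samples fewer cells with a transcript and less of it per cell cannot be told apart. In RNA-Seq, ALKBH5 averaged 5.05 RPKM over 8 libraries and ranked 7 of 23 genes made up of the demethylases, 9 writers and 12 readers. FTO averaged 0.422 RPKM and ranked 23 of 23. The most abundant of the 23 was HNRNPC, a reader of RNA structure opened by m6A, at 39.1 RPKM, and METTL3, the catalytic writer, averaged 2.65 RPKM. The same order of the demethylases held in Subunit-Seq. ALKBH5 ranked 4 in the inputs at 14.8 RPKM and 3 in the IPs at 79.2 RPKM, and FTO was 23 in both at 0.609 and 1.08 RPKM. Per length, FTO was therefore the lowest of the 23 genes in RNA-Seq, input and IP alike. The effective length behind these values was 21379 bases for FTO and 3190 for ALKBH5. Before division by length, RNA-Seq libraries held 14 to 110 reads of FTO and 51 to 173 of ALKBH5.

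The first question was whether Tg altered the level of either demethylase RNA, and whether it did so differently in DD cells. ALKBH5 was higher in WT Tg than in WT DMSO in both libraries, but the difference did not pass the test. Its level was 4.20 and 3.55 RPKM in WT DMSO replicates 1 and 2, from 97 and 51 reads. Under Tg, WT cells had 5.79 and 6.95 RPKM, from 151 and 173 reads. The 2 groups did not overlap, as for 6.55% of the 9637 genes tested in this direction. In DD cells ALKBH5 was 5.51 and 3.99 RPKM in DMSO and 4.26 and 6.14 RPKM in Tg, from 124 to 138 reads, and these groups overlapped: Tg was the lower in replicate 1 and the higher in replicate 2.

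The group means of ALKBH5 were 3.87 ± 0.461 RPKM in WT DMSO, 4.75 ± 1.08 in DD DMSO, 5.20 ± 1.33 in DD Tg and 6.37 ± 0.822 in WT Tg (SD, n = 2 each). No neighbours in that order differed beyond their spread. On the log2(RPKM + 1) scale, WT Tg exceeded WT DMSO by 0.60 ± 0.51 (SE), with a 95% interval of −0.55 to 1.74 and an adjusted p of 1 (limma, Benjamini-Hochberg). The median of all genes was 0.12. No gene was called in this comparison (0% of 9637), and 24 had an unadjusted p under 0.05. Within replicate numbers the ALKBH5 difference was 0.38 and 0.81, above 89.2% and 90.4% of genes.

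In DD cells the ALKBH5 difference between Tg and DMSO was 0.10 ± 0.51, with an interval of −1.04 to 1.25 and an adjusted p of 1. It was −0.31 in replicate 1 and 0.52 in replicate 2. The DD minus WT difference was 0.23 in DMSO and −0.26 in Tg, each with an SE of 0.51 and an adjusted p of 1. The difference between the 2 Tg responses, DD minus WT, was −0.49 ± 0.72, with an interval of −2.11 to 1.12 and an adjusted p of 1.00. It was negative within both replicate numbers, at −0.69 and −0.29. No gene was called in any of these 4 comparisons either, and 25, 68, 82 and 21 genes had an unadjusted p under 0.05. At 51 to 173 ALKBH5 reads per library and 2 libraries per group, the intervals include both a fall and a rise of more than 1 on the log2 scale in DD cells.

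FTO differed more between replicate numbers than between groups. In WT DMSO it was 0.426 and 0.145 RPKM, from 66 and 14 reads, and in WT Tg 0.612 and 0.264 RPKM, from 107 and 44 reads. In DD DMSO it was 0.524 and 0.202 RPKM, from 86 and 42 reads. Replicate 1 was the higher in these 3 groups, while in DD Tg, at 0.423 and 0.781 RPKM from 92 and 110 reads, replicate 2 was. All pairs of groups compared overlapped. The highest value came from DD Tg replicate 2, the library with the highest mitochondrial ribosomal share, and the part of that in the value was not tested.

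FTO averaged under 1 RPKM and so failed the filter on low values, and its differences come from a fit of all 30821 genes above 0, in which 0% were called in each comparison. Tg minus DMSO was 0.16 ± 0.29 (SE) in WT and 0.23 ± 0.29 in DD cells, with 95% intervals of −0.54 to 0.86 and −0.47 to 0.93. DD minus WT was 0.08 in DMSO and 0.16 in Tg. The difference between the 2 Tg responses was 0.08 ± 0.42. Every adjusted p was 1 or 1.00 (limma, Benjamini-Hochberg). On this scale a value far below 1 RPKM is compressed: in plain RPKM, the FTO ratio of Tg to DMSO was 1.44 and 1.82 within the WT replicate numbers and 0.808 and 3.87 within those of DD.

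**Figure D1:**
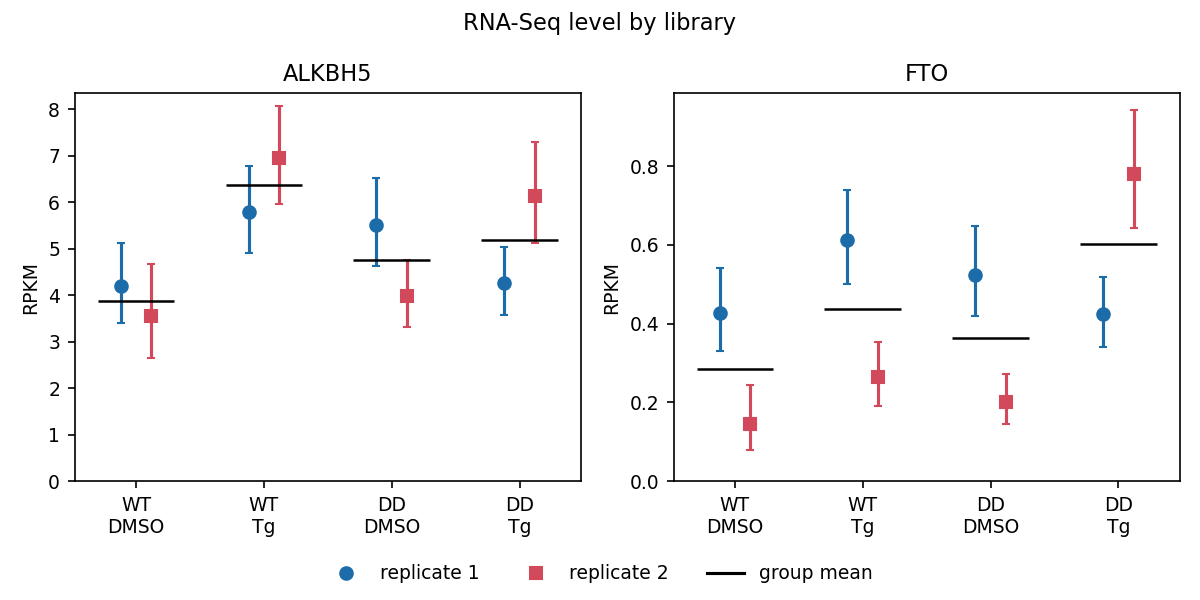
RPKM (linear axes, different for the 2 genes) of ALKBH5 and FTO in each RNA-Seq library, with 95% exact Poisson intervals that cover counting error only, and the group mean as a line. ALKBH5 in WT Tg (5.79 and 6.95) lies above WT DMSO (4.20 and 3.55), the DD groups overlap, and FTO is higher in replicate 1 in every group but DD Tg.

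None of the genes that share a pathway with the demethylases passed the test in any of the 5 RNA-Seq comparisons, as for all genes tested (0% of 9637 called in each). In WT cells under Tg, the median difference was 0.23 for the 8 of 9 writers that passed the filter, 0.10 for 11 of 12 readers and 0.19 for 6 of 7 other AlkB genes, against 0.12 for all genes. None of these 25 genes exceeded the ALKBH5 value of 0.60. The nearest were ALKBH1 (0.52), a demethylase of transfer RNA and mitochondrial DNA, WTAP (0.46), the adaptor of the writer complex, and HNRNPC (0.45). The smallest were ZC3H13 (−0.22), a scaffold of the writer complex, and the nuclear reader YTHDC1 (−0.16).

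Of the 11 genes that make or consume 2-oxoglutarate, succinate or fumarate, 9 passed the filter, with a median of 0.10. IDH2, the mitochondrial enzyme that makes 2-oxoglutarate from isocitrate, had the largest value at 0.87, and IDH3B, a subunit of the NAD-dependent isocitrate dehydrogenase, the smallest at −0.10.

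In DD cells under Tg, the pattern across these lists differed from that of ALKBH5. All 11 readers had a larger difference than ALKBH5, with a median of 0.43 against 0.02 for all genes, from HNRNPC (0.21) to FMR1 (0.57), the RNA-binding protein lost in fragile X syndrome. Writers had a median of 0.31, from METTL3 (−0.04) to VIRMA (0.58), and other AlkB genes one of −0.08, from ALKBH7 (−0.93) to ALKBH8 (0.33). The 2-oxoglutarate genes had a median of −0.42, from IDH3G (−0.78) to FH (0.36). Without DD Tg replicate 2, the reader median was 0.12 with 5 of 11 above the median of all genes, 0.13, the writer median was 0.05, and the median of the other AlkB genes turned to 0.30, with 4 of 6 above the median of all genes in place of 2 of 6. The values of these 3 lists in DD cells thus changed without that library. Whether leaving out another library changes them as much was not tested.

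**Figure D2:**
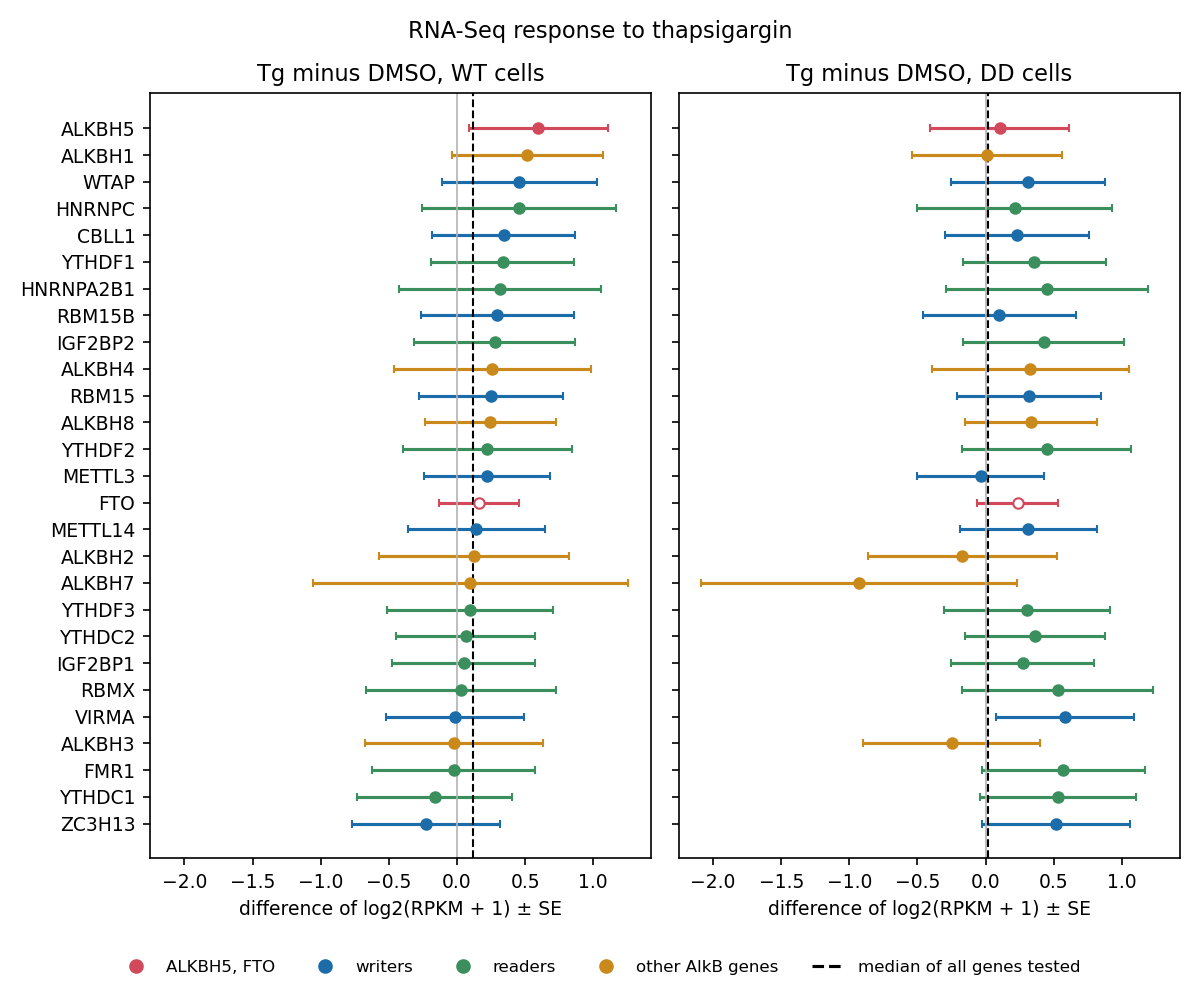
Difference between Tg and DMSO in log2(RPKM + 1), with its SE, for the demethylases, writers, readers and other AlkB genes in WT (left) and DD cells (right), ordered by the WT value, with the median of all genes tested as a dashed line. FTO is hollow because its value comes from the fit without the filter. ALKBH5 has the largest value in WT cells (0.60) and 0.10 in DD cells, where all 11 filled reader points lie to its right.

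The next question was how much of each demethylase RNA was recovered with the cap-binding domain of eIF3d. ALKBH5 was higher in the IP than in the input under both treatments. In DMSO, its inputs were 26.9 and 1.85 RPKM in replicates 1 and 2 (699 and 86 reads), and its IPs 64.8 and 60.8 RPKM (2233 and 2878 reads). In Tg, its inputs were 20.1 and 10.4 RPKM (327 and 400 reads), and its IPs 103 and 87.9 RPKM (5547 and 4435 reads). Every IP library exceeded every input library, as for 56% of the 9813 genes tested in DMSO and 64.7% in Tg. The inputs varied far more than the IPs, and the low value was in the DMSO input that stood apart.

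The IP exceeded the input by 2.84 ± 0.67 in DMSO (limma, Benjamini-Hochberg adjusted p = 0.00125) and by 2.63 ± 0.67 in Tg (limma, Benjamini-Hochberg adjusted p = 0.00239), on the log2(RPKM + 1) scale with SE. In this fit limma used the spread shared by genes of like level in place of each gene's own. These SE and p-values thus do not measure the spread of ALKBH5 itself. Most genes were also higher in the IP, with medians of 0.96 and 0.87, and 21.4% and 14.6% of genes were called higher. The ALKBH5 difference was above that of 98.9% of genes in DMSO and 98.2% in Tg. As plain RPKM ratios of IP to input, ALKBH5 had 2.40 and 33.0 in DMSO replicates 1 and 2 and 5.13 and 8.43 in Tg. Within DMSO the log2 difference was 1.23 in replicate 1, where the median gene had 0.38, and 4.44 in replicate 2, where it had 1.57. In Tg the replicates were closer, at 2.30 and 2.96, with medians of 0.85 and 0.84.

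The ALKBH5 calls depended on single libraries and on the scaling. Without input DMSO replicate 2 the DMSO difference was 1.39 (adjusted p = 0.345), and without IP DMSO replicate 2 it was 2.15 (limma, Benjamini-Hochberg adjusted p = 0.364). The Tg call was lost without input Tg replicate 1 (2.47, adjusted p = 0.176), input Tg replicate 2 (2.79, adjusted p = 0.0623) or IP Tg replicate 2 (2.03, limma, Benjamini-Hochberg adjusted p = 0.478). When libraries were rescaled by the median ratio over genes, which moved the median of all genes to −0.12 in DMSO and −0.15 in Tg, ALKBH5 had differences of 1.55 and 1.38, and neither passed the test (limma, Benjamini-Hochberg adjusted p = 0.112 and 0.194). Without the replicate block the adjusted p was 0.112 in DMSO and 0.119 in Tg. ALKBH5 was higher in the IP in 4 of 4 pairs of input and IP with the same number and treatment. The median gene was also higher in each pair, by 0.38 and 1.57 in DMSO and 0.85 and 0.84 in Tg.

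FTO had smaller differences between IP and input than ALKBH5, and they did not pass the test. In DMSO its inputs were 0.817 and 0.0993 RPKM (142 and 31 reads) and its IPs 0.857 and 1.38 RPKM (198 and 438 reads). In Tg its inputs were 1.30 and 0.218 RPKM (142 and 56 reads) and its IPs 1.13 and 0.940 RPKM (406 and 318 reads). The DMSO groups did not overlap, as for 56% of the genes that passed the filter, while in Tg the highest value was an input. The ratios of IP to input in plain RPKM were 1.05 and 13.9 in DMSO and 0.865 and 4.32 in Tg, near 1 in replicate 1 and well above it in replicate 2. FTO failed the input filter, and in the fit of all 31093 genes, in which 0% were called, its difference was 0.57 ± 0.44 (adjusted p = 0.469, limma, Benjamini-Hochberg) in DMSO and 0.28 ± 0.44 (adjusted p = 0.765) in Tg. ALKBH5 was not called in that fit either, with adjusted p of 0.235 and 0.230. The FTO difference depended on the scale, and was 1.48 in DMSO and 0.76 in Tg with a pseudocount of 0.1, and 1.80 and 0.89 with limma voom on the recovered reads, none of them called.

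**Figure D3:**
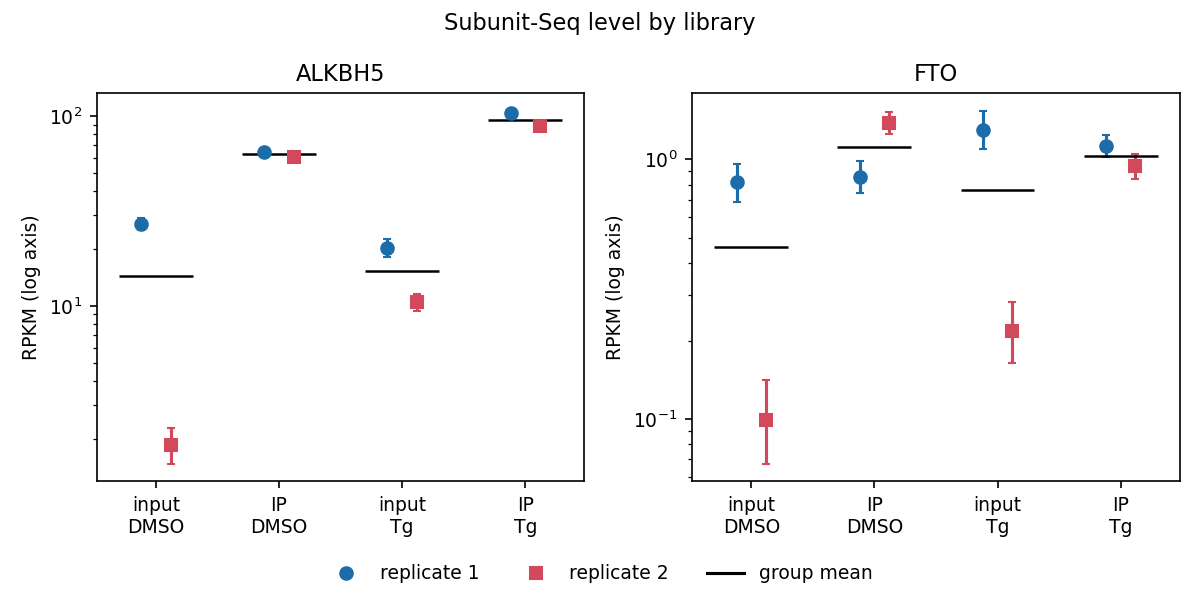
RPKM on log axes of ALKBH5 and FTO in each Subunit-Seq library, with 95% exact Poisson intervals that cover counting error only, and the group mean as a line. ALKBH5 IP libraries lie between 60.8 and 103 RPKM, above every input, and the lowest point of both genes is input DMSO replicate 2 (1.85 and 0.0993).

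Tg was also compared with DMSO within input and within IP. ALKBH5 in the IP was 1.59 and 1.44 times as high in Tg as in DMSO within replicates 1 and 2, and the groups did not overlap, as for 18.1% of genes in this direction. Group means were 62.8 ± 2.77 RPKM in DMSO and 95.5 ± 10.8 RPKM in Tg (SD, n = 2 each). The log2 difference was 0.59 ± 0.67, with a 95% interval of −0.71 to 1.90 and an adjusted p of 1 (limma, Benjamini-Hochberg), against a median of 0.07 for all genes. Of the 9813 genes, 0.051% were called higher here and 0.0204% lower.

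In the input, the ALKBH5 difference between Tg and DMSO was 0.80 ± 0.67 (limma, Benjamini-Hochberg adjusted p = 1.00), and the replicates pointed in opposite directions, with −0.41 and 2.01. The change of recovery, IP minus input in Tg less the same in DMSO, was −0.21 ± 0.94 with an interval of −2.05 to 1.64. It was 1.07 in replicate 1 and −1.48 in replicate 2, so its sign differed between replicates. For this change 0.0611% of genes were called, all lower, and ALKBH5 was not among them. For FTO the differences were 0.24 ± 0.44 in the input, −0.05 ± 0.44 in the IP and −0.29 ± 0.63 for the change of recovery, and each adjusted p was 1 or 1.00 (limma, Benjamini-Hochberg).

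Beside ALKBH5, several writers and readers were higher in the IP. Of 8 writers tested, 3 were called higher in DMSO and the same 3 genes in Tg, beside 21.4% and 14.6% of all genes. These were RBM15B (2.31 in DMSO, 2.61 in Tg), which brings the writer complex to RNA, ZC3H13 (2.48 and 2.17), and METTL16 (1.77 and 1.73), which methylates MAT2A and U6 RNA. METTL3 had 0.49 and 0.36 and was not called. The writer medians were 1.46 and 1.55, against 0.96 and 0.87 for all genes.

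Of 11 readers, 8 were called higher in DMSO and 5 in Tg, beside the same 21.4% and 14.6% of all genes. Their medians were 1.84 and 1.31, against 0.96 and 0.87 for all genes. HNRNPA2B1, a nuclear m6A-associated protein, had the largest values (2.59 and 2.37), followed by YTHDF1 (2.05 and 2.08). YTHDF2 (1.87 and 1.93), YTHDC1 (1.91 and 1.68) and FMR1 (1.61 and 1.84) also passed in both, while IGF2BP1 (1.88), IGF2BP2 (1.84) and HNRNPC (1.61) passed in DMSO. No writer, reader or other AlkB gene tested exceeded ALKBH5 under either treatment, and RBM15B in Tg came closest, at 2.61 against 2.63.

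The other AlkB genes had lower values than ALKBH5. None of 6 tested was called higher in either treatment, with medians of 0.51 and 0.67, below those of all genes. ALKBH7, a mitochondrial family member, was lower in the IP, passing the test in Tg (−1.84, limma, Benjamini-Hochberg adjusted p = 0.0362) and not in DMSO (−1.55, adjusted p = 0.0604). Genes called lower made up 1.75% of all genes in DMSO and 1.62% in Tg. Among the 11 genes of 2-oxoglutarate, SDHA, the succinate dehydrogenase subunit, was higher in DMSO (1.77), and none passed in Tg. HSPA5 was higher in the IP in both treatments at 3.04 and 2.43.

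Without input DMSO replicate 2, no gene of any list was called in DMSO (0 of all genes), and the writer and reader medians were 0.83 and 0.68 against 0.41 for all genes. In Tg the medians of writers, readers and other AlkB genes were 1.55, 1.31 and 0.67, against 0.87 for all genes. These Tg differences do not use the DMSO libraries, so the same omission could not change them.

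The ratio of ALKBH5 to FTO within a library does not depend on that library's scaling. Its size does depend on the effective lengths, 3190 bases for ALKBH5 and 21379 for FTO. It was 7.86 to 26.4 in RNA-Seq, 15.4 to 47.9 in the Subunit-Seq inputs and 44.0 to 93.5 in the IPs. In RNA-Seq it was 9.46 to 10.5 in the replicate 1 libraries and 19.8 to 26.4 in the replicate 2 libraries other than DD Tg, which had the lowest value of all. The ratio was higher in the IP than in the input of the same number and treatment in 4 of 4 pairs, from 33.0 to 75.6 and 18.6 to 44.0 in DMSO, and from 15.4 to 91.6 and 47.9 to 93.5 in Tg.

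**Figure D4:**
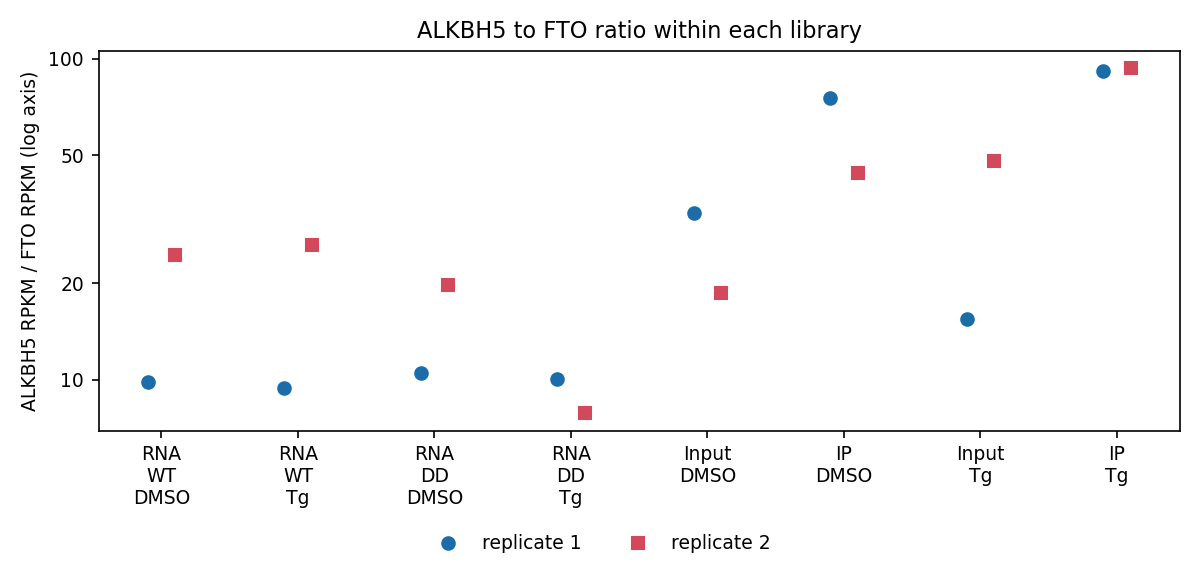
Ratio of ALKBH5 to FTO RPKM (log axis) in each of the 16 expression libraries, by group and replicate number. All 8 RNA-Seq libraries lie between 7.86 and 26.4, and the 4 IP libraries between 44.0 and 93.5, each above the input of its own number and treatment.

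Among genes with a mean of at least 5 RPKM, those most like ALKBH5 across the 8 RNA-Seq libraries were HDLBP (Pearson r = 0.80), SRPRA (0.80) and LSM14A (0.77). The 3 most like FTO were MTDH, RB1CC1 and SRPK1, with r of 0.99, 0.99 and 0.98. ALKBH5 and FTO had an r of 0.55 with each other in RNA-Seq and 0.81 in Subunit-Seq. In Subunit-Seq the closest to ALKBH5 were KMT5A, KANSL3 and ATF1, each with r = 1.00, and the closest to FTO were SKIC3 (0.97), LIN28B (0.97) and KPNA3 (0.96). These values describe 8 libraries that share groups, replicate numbers and, in Subunit-Seq, the split between input and IP.

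Of the neighbours, LLGL1, a cell polarity gene, passed both filters. Its difference under Tg was 0.47 in WT and −0.10 in DD RNA-Seq, and its IP minus input difference was 1.56 in DMSO (limma, Benjamini-Hochberg adjusted p = 0.0586) and 1.19 in Tg. MYO15A, on the other side of ALKBH5, was at most 0.036 RPKM in RNA-Seq and 0.068 in Subunit-Seq. RPGRIP1L, the ciliary gene that faces FTO, was 0.233 to 1.57 RPKM in RNA-Seq, highest, like FTO, in DD Tg replicate 2.

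The last question was whether the demethylase transcripts themselves carried listed m6A sites. None of the 4 lists, of 3000 sites in WT DMSO, 1572 in WT Tg, 1796 in DD DMSO and 5050 in DD Tg, had a site within ALKBH5 or FTO on either strand, nor within 1000 bases of them. The share of expressed protein-coding genes, those that passed the RNA-Seq filter, with a site in these lists was 10.4%, 4.81%, 5.18% and 18.7%. FTO failed that filter. Of all protein-coding genes, 5.37%, 2.54%, 2.82% and 9.41% had a site. The nearest site to ALKBH5 was 441, 800, 363 and 372 kb away, and the nearest to FTO 5633, 2785, 801 and 2057 kb. The lists give no coverage, so the depth behind a missing site is unknown, and they have no replicate.

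Other genes of the pathway did hold sites, most of them in DD Tg, the longest list. WTAP had a site on its own strand in WT DMSO (chromosome 6, position 159755325) and another nearby in DD Tg (159755378), where the list also placed one on the opposite strand. ALKBH1 had a site at position 77673646 of chromosome 14 in WT DMSO and in DD Tg. HNRNPA2B1 had one at position 26200746 of chromosome 7 in WT Tg and in DD Tg. RBM15, YTHDF1, YTHDF2, IGF2BP1 and HNRNPC had sites in DD Tg alone, and the strand of IGF2BP1 was not given. No writer, reader or other AlkB gene had a site in DD DMSO, where 5.18% of expressed protein-coding genes had one. In DD Tg the genes with a site were 2 of 9 writers, 5 of 12 readers and 1 of 7 other AlkB genes. The share in that list was 18.7% of expressed and 9.41% of all protein-coding genes.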

How the data were processed

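Per the labels' protocols, poly(A) RNA-Seq and Subunit-Seq libraries were made with NEBNext Ultra II kits and m6A-eCLIP libraries with an Eclipse Bio kit. Per the submitters' processing notes, cutadapt, STAR, DESeq2, BWA and GRCh38 were used; the counter, annotation and site caller are not given in the sources used here. The authors deposited RPKM for 58721 genes (symbols matched for 99.1%) and 4 lists of m6A site positions (unit: other, with no score).

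The RPKM steps gave whole reads for all 26179 genes above 0 in at least 3 libraries (tolerance 0.02), with an effective length of 3190 bases for ALKBH5 and 21379 for FTO. Depth was 4508483 to 16860637 reads, and 95% Poisson intervals cover counting error only. Values were fitted as log2(RPKM + 1) with limma 3.58.1 in R 4.3.3 (trend, two-sided, Benjamini-Hochberg over all genes tested, threshold 0.05), with the 4 groups of an assay in 1 fit. Genes needed a mean of 1 RPKM over the 8 RNA-Seq libraries (9637 genes) or over the 4 inputs (9813 genes). Subunit-Seq replicates were deposited as separate tables, so that fit has the replicate number as a block. With the filter on low values, limma gave each gene in that fit the spread shared by genes of like level. FTO failed both filters and was taken from fits of 30821 and 31093 genes. In these fits zero variances were offset by limma. The scripts were tested on simulated reads with no difference between replicate numbers, so that test does not cover the differences seen between these libraries.

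Genes named were the demethylases, the list members that passed the test or had the largest or smallest difference, neighbours in RefSeq, the 3 genes most correlated with each demethylase, and checks of treatment; others named were chosen after their values were seen. Members and lists were chosen with earlier results of these data known. m6A sites were assigned to RefSeq gene spans. The alternatives tried were other pseudocounts, filters, scalings, blocks, limma voom on the recovered reads and leaving out each library.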

Additional observations from a re-analysis of the deposited data

How the results depend on the processing

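The 2 calls of ALKBH5 in the IP over input comparison were lost under several settings, and the cause was not tested. Without the replicate block the differences stayed at 2.84 in DMSO and 2.63 in Tg, and without a filter on low values they did too, but neither call passed. Median-ratio scaling gave 1.55 and 1.38, and limma voom on the recovered reads gave 2.67 in Tg, again not called; FTO, 0.57 in DMSO and 0.28 in Tg, became 0.14 and −0.24 under median-ratio scaling, 1.48 and 0.76 with a pseudocount of 0.1 and 1.80 and 0.89 with voom, and was called under none of these. Leaving out 1 library at a time gave ALKBH5 1.39 to 4.29 in DMSO and 2.03 to 3.23 in Tg. An arm left with 1 library was assumed to vary like the others.

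The number of genes called in this comparison, 2272 in DMSO and 1591 in Tg, was 1332 and 447 with a pseudocount of 0.1, 24 and 36 without the block, 29 and 85 with median-ratio scaling, 1400 and 735 when scaled without mitochondrial genes, 666 and 191 with voom, and 0 and 0 without a filter. It was 0 to 5073 and 114 to 2905 with 1 library left out. The 6 calls for the change of recovery, 5 in the input and 7 in the IP fell to 0 or 1 under these settings, and were 0 to 19, 0 to 33 and 0 to 24 with 1 library left out.

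Of the differences that passed no test, those that kept their sign with 1 library left out were, for ALKBH5 in RNA-Seq, WT Tg against DMSO (0.48 to 0.71), DD against WT in DMSO (0.038 to 0.42) and in Tg (−0.48 to −0.042) and the difference of responses (−0.71 to −0.27), and, for FTO, DD Tg against DMSO (0.063 to 0.41) and IP over input in DMSO (0.098 to 1.05). The others changed sign with single libraries. Their ranges for ALKBH5 were −0.12 to 0.32 for DD Tg against DMSO, −1.65 to 1.24 for the change of recovery, −0.65 to 2.25 for the input and −0.10 to 1.28 for the IP. Those for FTO in RNA-Seq were −0.016 to 0.33 for WT Tg against DMSO, −0.089 to 0.25 for DD against WT in DMSO, −0.018 to 0.33 in Tg and −0.10 to 0.25 for the difference of responses. In Subunit-Seq those for FTO were −0.10 to 0.66 for IP over input in Tg, −0.77 to 0.18 for the change of recovery, −0.13 to 0.62 for the input and −0.53 to 0.43 for the IP.

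The replicate numbers of RNA-Seq are only 2 and are not stated to mark a shared batch. Same-numbered libraries deviated together with correlations of 0.13 to 0.86 across genes, and those of Subunit-Seq with 0.002 to 0.51. In RNA-Seq the FTO differences, 0.08 to 0.23, were 0.14 to 0.65 with a pseudocount of 0.1 and 0.19 to 0.82 with voom. With the replicate block, ALKBH5 in WT Tg against DMSO stayed at 0.60 and no RNA-Seq gene was called. With the block, and with DD Tg replicate 2 also left out, ALKBH5 in DD Tg against DMSO was −0.18 and FTO −0.10, FTO in DD against WT under Tg was −0.17, the FTO difference of responses was −0.25, and 3 genes were called between DD and WT in DMSO. The counts of list members without 1 library, given above, were chosen after seeing the data.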
